A study of Homo sapiens with 5 samples.

Results

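Lysyl oxidases and small leucine-rich proteoglycans are secreted proteins that build and tighten the collagen network around cells. The 5 lysyl oxidase genes (LOX and LOXL1 to LOXL4) and 5 genes of small matrix proteins (LUM, DCN, BGN, OGN and DPT) were described here in clones of TE7, a line derived from a human carcinoma of the esophagus. The list was selected on its function and proposed with results of the same comparison, CDH26 clones against control clones, already known. The values of the 10 genes are therefore given as a description, with no test. All 10 listed genes had a named probe set, 1 each, among the 14812 genes named on the array.

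The series held 5 clones, each grown from a single cell and measured on 1 Affymetrix Gene 2.0 ST array. Of these, 2 carried the control construct pMIRNA1-puro-control and 3 carried pMIRNA1-puro-CDH26, which expresses the cadherin CDH26, a calcium-dependent adhesion protein. Both groups were kept in RPMI with 1.8 mM calcium for 24 h before total RNA was extracted. Each deposited value is a logarithm, taken here as log2, of a clone's signal over the average control signal, and gives a difference between clones and no expression level. A group difference is the mean of the CDH26 clones minus the mean of the control clones. Because every clone has 1 array, the spread within a group holds both clonal and array variation, and the number of arrays limits the precision.

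Lysyl oxidases are copper enzymes that oxidise lysine side chains of collagen and elastin, after which the fibres cross-link. They are secreted, and LOX itself is made as a proprotein that BMP1 and the tolloid-like proteases cut to the active enzyme. Small leucine-rich proteoglycans bind collagen fibrils and control their width and spacing, and decorin and biglycan also bind growth factors. Fibroblasts are the best-known source of both families, and carcinoma cells can also express LOX and its relatives.

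The 2 lysyl oxidase genes with the largest group differences, LOX and LOXL4, had group differences of opposite sign. Promoters were sought for LOX, LOXL4, LUM and DCN, of which LUM and DCN had no entry. The 250 bases before the RefSeq start sites of LOX and LOXL4 are shown (GRCh38.p14, gene strand, 5′ to 3′). LOX lies on the minus strand at chr5:122078260-122078509, and LOXL4 on the minus strand at chr10:98268195-98268444. Capitals mark every match, on either strand, to the 8 short motifs searched.

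LOX: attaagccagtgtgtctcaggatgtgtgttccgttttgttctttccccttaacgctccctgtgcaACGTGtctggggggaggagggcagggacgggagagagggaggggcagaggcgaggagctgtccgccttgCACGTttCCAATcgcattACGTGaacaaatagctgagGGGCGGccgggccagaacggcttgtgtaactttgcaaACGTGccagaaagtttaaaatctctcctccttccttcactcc

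LOXL4: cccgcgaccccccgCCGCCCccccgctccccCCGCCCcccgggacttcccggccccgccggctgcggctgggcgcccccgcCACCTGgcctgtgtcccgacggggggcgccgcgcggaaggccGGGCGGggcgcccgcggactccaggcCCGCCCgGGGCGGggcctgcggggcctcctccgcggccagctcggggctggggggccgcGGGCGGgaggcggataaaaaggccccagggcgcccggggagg

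The motifs were the TATA box (TATAAA), the CCAAT box (its own letters), the GC box (GGGCGG), the core of the hypoxia response element (ACGTG), the AP-1 site (TGANTCA), the TEAD site (CATTCC), the E-box of SNAI and ZEB factors (CACCTG) and the STAT site (TTCNNNGAA). No match overlapped another in the LOX and LOXL4 windows. The LOX window held 4 copies of ACGTG, starting 185, 116, 98 and 42 bases before the start site, along with 1 CCAAT box and 1 GC box. Of 27305 promoters of the same length, 18.7% held at least 1 copy of ACGTG and 0.714% held at least 4, a number set by the LOX window itself. The LOXL4 window had a GC content of 86.4%, against 55.2% for LOX. It held 6 GC boxes, a number set by the LOXL4 window itself and reached by 2.26% of promoters. That share is not matched for GC content. The BGN window, not shown, had 5 matches, all of them GC boxes. The LOXL4 window also held 1 match to CACCTG, which 17.5% of promoters contained. GC boxes were present in 42.3% of promoters and CCAAT boxes in 33%. The TATA box was found in 11.1%, the AP-1 site in 6.6%, the TEAD site in 11.9% and the STAT site in 6.78% of promoters. Neither the LOX window nor the LOXL4 window held these last 4 motifs. A match describes letters and is not evidence of binding. Of the 10 genes, 7 had an entry in the promoter table; LUM, DCN and LOXL2 had none.

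LOX, the founding enzyme of the family, was higher in every CDH26 clone than in either control clone. It was at 1.70, 2.22 and 0.90 in CDH26 clones 1 to 3, while control clones 1 and 2 were at −0.03 and 0.03. CDH26 clones 1 and 2 were high, CDH26 clone 3 was intermediate, and the groups did not overlap. The group difference was 1.61 ± 0.49 log2 units (SE, 3 against 2 clones), a 3.04-fold difference, and the CDH26 mean was 1.61 ± 0.66 (SD, n = 3). Relative to the control mean, LOX was 3.24-fold, 4.65-fold and 1.87-fold higher in CDH26 clones 1 to 3. Among all 14812 genes LOX had the 20th largest positive group difference.

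LOXL4, another collagen-oxidising member of the family, had the lowest group difference of the lysyl oxidases. It was at −1.43, −0.92 and −0.19 in CDH26 clones 1 to 3. The control clones were far apart, at 0.50 and −0.50, and CDH26 clone 3 lay between them, so the groups overlapped. The group difference was −0.85 ± 0.60 (SE). Leaving out control clone 1 gave −0.34 and leaving out control clone 2 gave −1.35, and so its size depended on which control clone was used. Between control clones 1 and 2, which carry the same construct, LOXL4 differed by 1.01 log2 units. Of the 10 genes it was the only one at least 1 log2 unit apart in these clones, as were 183 of all 14812 genes. Such genes numbered 202, 153 and 33 between control clone 1 and CDH26 clones 1 to 3. Between control clone 2 and these CDH26 clones they numbered 324, 344 and 157. The 183 of the control clones lay within this range.

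LOXL2, an oxidase that also acts on collagen of basement membranes, had no common direction in the CDH26 clones. CDH26 clones 1 and 2 were at −0.38 and −0.44, but CDH26 clone 3 was at 0.35. Both control clones lay between these, at 0.01 and −0.01. The group difference of −0.16 ± 0.33 (SE) was therefore smaller than the spread of the CDH26 clones, whose SD was 0.44. Without CDH26 clone 3 it was −0.41.

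LOXL1, which is needed for the upkeep of elastic fibres, and LOXL3, which acts in the development of cartilage and muscle attachments, showed small differences. LOXL1 was at 0.04 in each of the 3 CDH26 clones, with an SD of 0 among them, and at −0.16 and 0.16 in control clones 1 and 2. The CDH26 clones thus lay between the control clones, and the difference was 0.04 ± 0.12 (SE). LOXL3 was at −0.22, −0.28 and −0.22 in CDH26 clones 1 to 3, with control clone 1 at the same level, −0.22, and control clone 2 at 0.22. The difference of −0.24 ± 0.16 (SE) rested on control clone 2, since without that clone it was −0.02 and without control clone 1 it was −0.45.

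**Figure D1:**
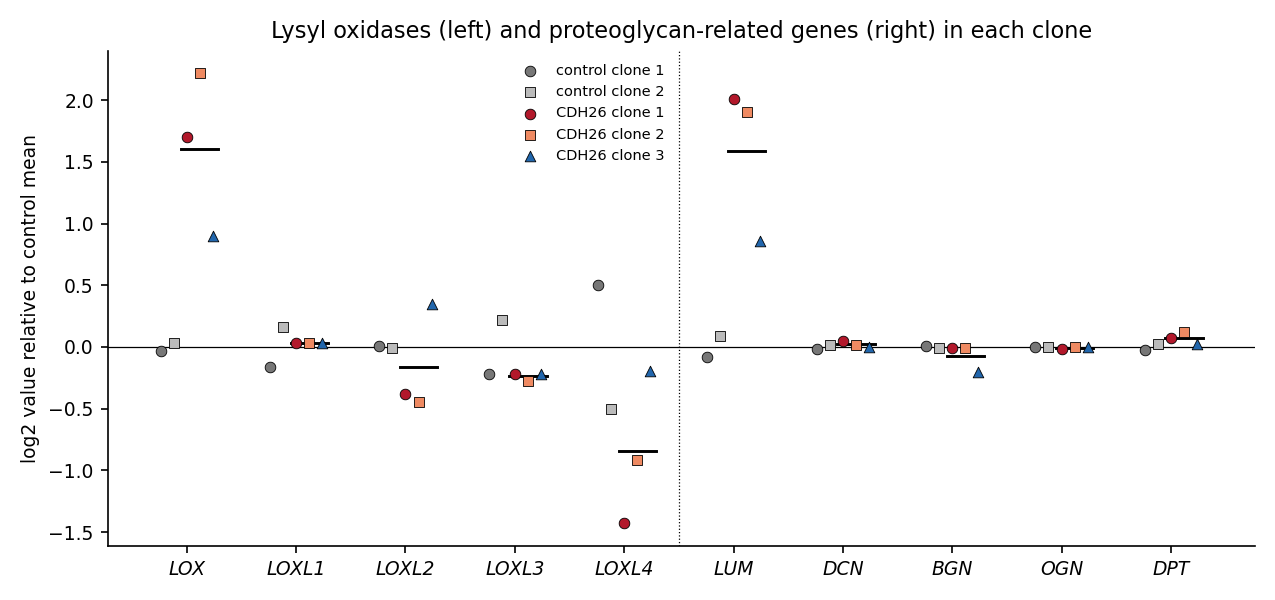
The plot shows the log2 value relative to the control mean (vertical axis) of each of the 10 genes (horizontal axis), with 1 point per clone and a black bar at the mean of the 3 CDH26 clones. LOX and LUM lie above both control clones in all CDH26 clones, with CDH26 clone 3 the lowest at 0.90 and 0.86, while LOXL4 in CDH26 clone 3, at −0.19, lies between the control clones.

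Among the matrix proteins, LUM was the member that stood apart. LUM encodes lumican, a proteoglycan that carries keratan sulfate chains and spaces collagen fibrils. It was at 2.01, 1.91 and 0.86 in CDH26 clones 1 to 3, while control clones 1 and 2 were at −0.09 and 0.09. All CDH26 clones were above both control clones, and CDH26 clone 3 was again the lowest of them. The group difference was 1.59 ± 0.48 (SE), a 3.01-fold difference, with a CDH26 mean of 1.59 ± 0.64 (SD, n = 3). By clone, LUM was 4.02-fold, 3.75-fold and 1.81-fold higher than the control mean. It ranked 21st among the positive group differences, next to LOX.

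DCN, which encodes decorin, a collagen-binding proteoglycan that also binds TGF-beta, was close to the control mean on all arrays. It was at 0.05, 0.01 and −0.00051 in CDH26 clones 1 to 3 and at −0.01 and 0.01 in the control clones. The group difference was 0.02 ± 0.02 (SE). BGN, which encodes the related biglycan, was at −0.0053 in CDH26 clones 1 and 2 and at −0.21 in CDH26 clone 3, with control clones at 0.0053 and −0.0053. CDH26 clones 1 and 2 therefore equalled control clone 2, and CDH26 clone 3 alone was lower, for a difference of −0.07 ± 0.09 (SE).

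OGN, which encodes osteoglycin, another leucine-rich protein of the matrix, had the same value on 4 of the 5 arrays, 0, and was at −0.02 in CDH26 clone 1. DPT encodes dermatopontin, a decorin-binding matrix protein that is not itself a proteoglycan. DPT was at 0.07, 0.12 and 0.02 in CDH26 clones 1 to 3 and at −0.02 and 0.02 in the control clones. CDH26 clone 3 equalled control clone 2, and the group difference was 0.07 ± 0.04 (SE). Equal values on different arrays were common in the deposited table: 5 of the 10 genes, and 6857 of all 14812, had a different value on each array. With no level in the table, a low signal and a steady one cannot be told apart for LOXL1, DCN, BGN, OGN and DPT. LOXL1 and LOXL3 also held equal values on different arrays. The SD of 0 among the CDH26 clones for LOXL1, and the SE that uses it, are thus no clear measure of precision.

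Of the 10 genes, 2 had every CDH26 clone above both control clones and 0 had every CDH26 clone below both, where values within 1e-05 counted as equal. Over all genes the shares were 8.98% above and 9.93% below. These counts come from the comparison that was known when the list was proposed, so nothing is read from them. The median group difference of the 10 genes was 0.01, beside 0 over all genes, and 5 had a higher and 5 a lower mean in the CDH26 clones. At least a 2-fold difference of means was found for LOX and LUM, both higher; of all genes, 0.506% passed 2-fold upward and 0.142% downward. The absolute difference was below 0.1 log2 units in 5 of the 10 genes and in 8932 of all genes. CDH26 clone 3 departed less from the control mean than the other CDH26 clones in 6 of the 10 genes, in 33.9% of all genes and in 92.7% of the 96 genes with a 2-fold difference of means, LOX and LUM among them. The smaller departure of CDH26 clone 3 was thus common among genes with large differences. The 33.9% is not a like-for-like share, since equal values can keep a gene from being counted. A different value on each array was found in all 96 genes, but in only 6857 of all 14812.

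**Figure D2:**
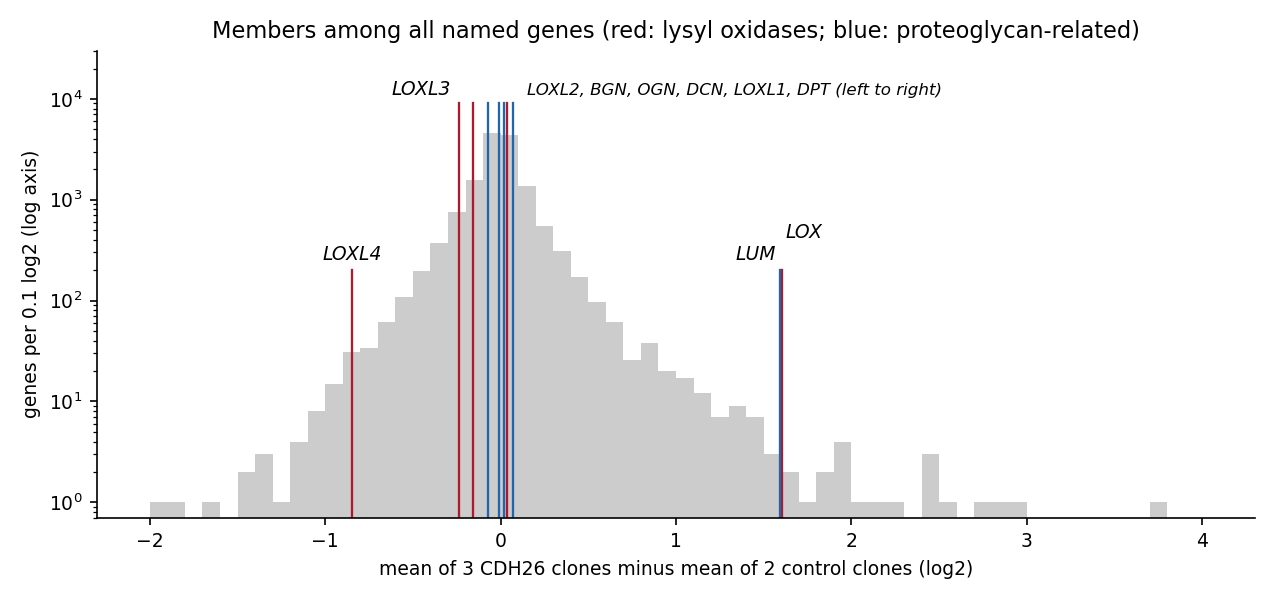
The histogram counts all 14812 named genes by group difference (horizontal axis, mean of 3 CDH26 clones minus mean of 2 control clones, log2) in bins of 0.1 on a log axis, with a vertical line for each of the 10 genes. LOX at 1.61 and LUM at 1.59 lie in the sparse upper tail, LOXL4 at −0.85 in the lower tail, and the other 7 between −0.24 and 0.07.

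LUM and DCN are neighbours on chromosome 12, in a cluster with KERA and EPYC, which encode the leucine-rich proteoglycans keratocan and epiphycan. LUM was the one gene of this cluster with a large difference. KERA was at 0, 0.04 and −0.06 in CDH26 clones 1 to 3 and EPYC at 0.01, 0 and 0, while both were at 0 in the control clones. The protein-coding genes with a named probe set next to this cluster, CCER1 and PLEKHG7, differed by 0.04 and 0.03. In the cluster of OGN on chromosome 9, OMD (osteomodulin) differed by 0.0019 and ASPN (asporin) by 0.02. Gene order was taken from the RefSeq annotation of GRCh38.p14, and these neighbours were looked up after the values of the 10 genes had been seen.

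The genes beside LOX on chromosome 5, looked up in the same way, were mostly unlike it. SRFBP1 and ZNF474, its nearest protein-coding neighbours, differed by −0.02 and 0.19, and FTMT by −0.0048. The next gene along, PRR16, was at 1.22 in CDH26 clone 1, 0.60 in CDH26 clone 3 and between these in CDH26 clone 2, with control clones at 0.07 and −0.07. Its difference of 0.97 log2 units did not pass the threshold (limma, adjusted p = 0.626). Neighbours of the other members were also looked up, and the regions described are a choice among them. Some of those neighbours differed, as XCL1 by 0.88 beside DPT and R3HCC1 by −0.31 beside LOXL2. Others hardly did, as AUP1 by 0.02 near LOXL3.

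**Figure D3:**
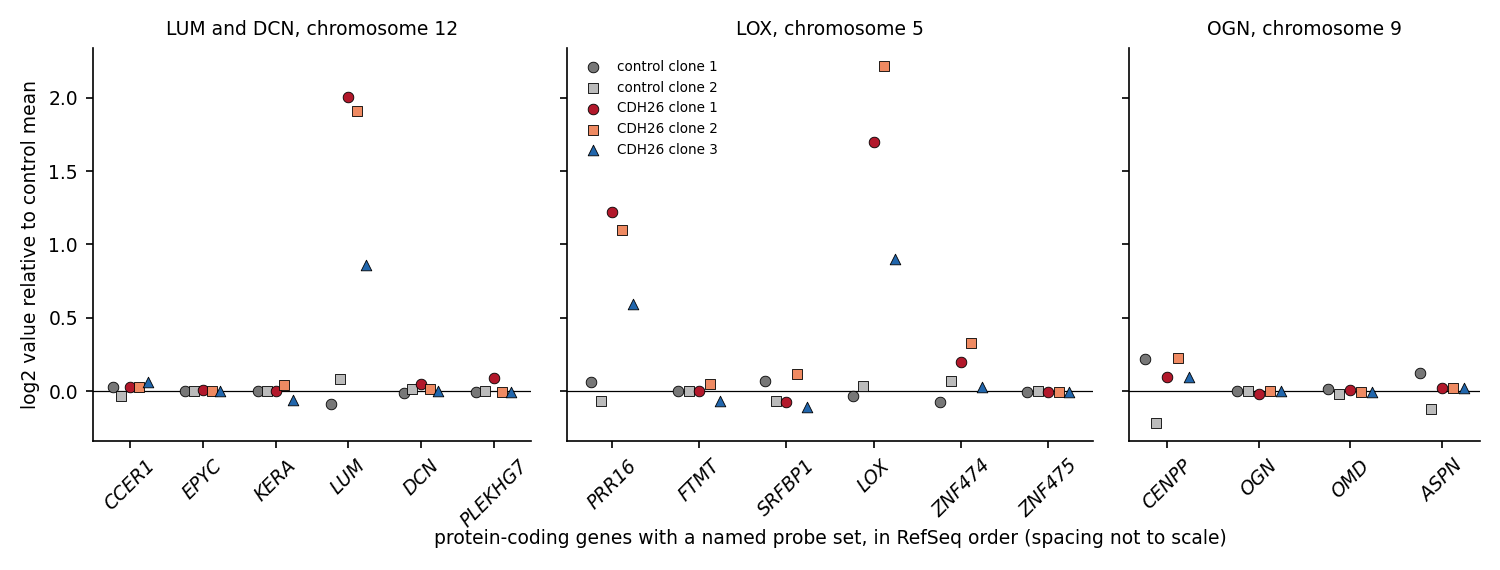
The panels show the log2 value relative to the control mean in each clone (vertical axis) for protein-coding genes with a named probe set, in RefSeq order around LUM and DCN, LOX, and OGN (horizontal axis, spacing not to scale). LUM stands above its neighbours, with KERA at −0.0052 and DCN at 0.02 for the group difference, whereas PRR16, at 0.97, stands apart beside LOX.

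The likeness of 2 genes was measured as the root mean square of their differences over the 5 arrays, and the 3 nearest genes were taken for each of the 3 members whose values spanned at least 1 log2 unit (LOX, LUM and LOXL4). LOX and LUM were close to each other: at 0.20 log2 units, LUM was the 2nd nearest gene to LOX of all named genes, and LOX the 3rd nearest to LUM. The measure is not scaled, so genes with group differences of similar size, as LOX and LUM (ranked 20th and 21st), tend to lie near each other. Shared regulation was not tested. The nearest to LOX was IKZF2, the lymphoid transcription factor Helios, at a distance of 0.12, with values of 1.58, 2.10 and 0.73 in CDH26 clones 1 to 3. The 3rd was TXNIP, the thioredoxin-interacting protein, at 0.21. The nearest to LUM were DPYD, the enzyme that begins pyrimidine breakdown, at 0.16, and MVP, the major vault protein, at 0.17. DPYD was at 2.25, 2.13 and 0.86 in the CDH26 clones, in the same order as LUM.

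LOXL4 was nearest to SCARNA9L, a small RNA of Cajal bodies, at a distance of 0.07 log2 units. SCARNA9L was at 0.50 and −0.50 in control clones 1 and 2 and at −1.42, −0.92 and −0.05 in CDH26 clones 1 to 3, which is nearly the profile of LOXL4. The transcription factor TOX and the gene GREB1L followed, at 0.21 and 0.22. These distances describe 5 arrays, all of which share the same control mean.

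**Figure D4:**
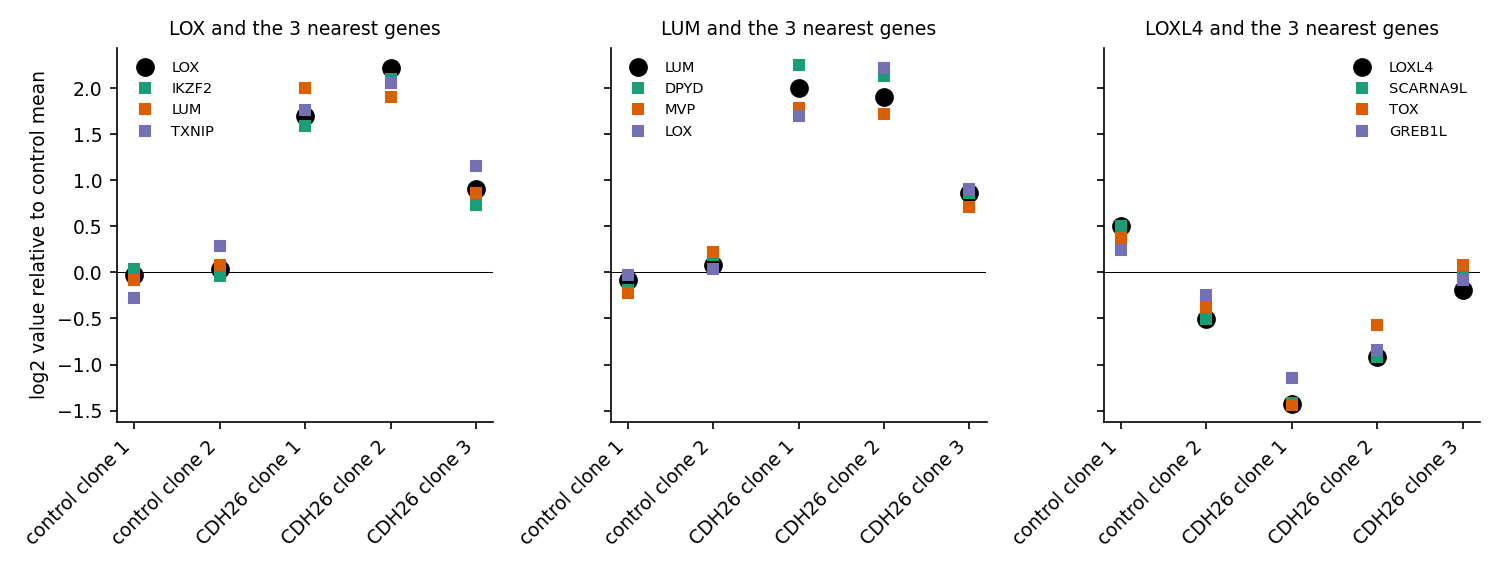
Each panel shows the log2 value relative to the control mean (vertical axis) in the 5 clones (horizontal axis) for LOX, LUM or LOXL4 (black circles) and the 3 genes nearest to it (coloured squares). The LOX and LUM panels share a high CDH26 clone 1 and 2 and a lower CDH26 clone 3, and in the LOXL4 panel control clone 1 is the highest, at 0.50.

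Other genes of the same pathways were compared by limma over all 14812 genes, with Benjamini-Hochberg adjustment and a threshold of 0.05. Of 168 genes on 10 lists, 114 were measured, and 0 passed the adjusted threshold, as was the case for all genes (0%). At an unadjusted p under 0.05, 4 of the 114 were higher and 3 lower, beside 3.51% higher and 4% lower over all genes. The CDH26 clones all exceeded both control clones in 9 of the 114 (7.89%) and all fell short of both in 14 (12.3%), which is near the shares over all genes given above. The median difference was −0.02, beside 0 over all genes. On the list of fibrillar collagens, the main substrates of these enzymes, no gene had a named probe set in the annotation used, and the list was not analysed here. In this text a listed gene is called measured where it had a named probe set.

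The proteases that cut pro-LOX and procollagen, and their helpers, gave no common direction. Of the 8 measured genes on this list 4 had a higher and 4 a lower mean, with a median of −0.02 and 0 past the adjusted threshold. TLL1, a tolloid-like protease, was at 1.12, 0.80 and 0.39 in CDH26 clones 1 to 3 with control clones at −0.15 and 0.15. The CDH26 clones were above both control clones and in the order of LUM, but the difference of 0.77 ± 0.26 (SE) did not pass (limma, adjusted p = 0.626). BMP1, the main protease of this kind, was at −0.42 and −0.36 in CDH26 clones 1 and 2 and at 0.02 in CDH26 clone 3. Its difference was −0.26 ± 0.16 (SE; limma, adjusted p = 0.626), and −0.39 without CDH26 clone 3.

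Enzymes that modify and fold collagen chains were covered by 7 of 18 genes, with a median of −0.08 and 0 past the adjusted threshold. COLGALT1, which adds galactose to collagen hydroxylysine, was at −0.41, −0.50 and −0.31 in CDH26 clones 1 to 3 and at 0.08 and −0.08 in the control clones. P3H2, a collagen prolyl 3-hydroxylase, was also below both control clones in all CDH26 clones. The differences were −0.41 ± 0.08 and −0.55 ± 0.20 (SE; limma, adjusted p = 0.626 for each). P3H2 was at −0.84 without control clone 1 and at −0.26 without control clone 2.

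The other leucine-rich proteoglycans were nearly flat: 13 of 14 were measured, 10 of them differed by less than 0.1, and the median was 0.02. TSKU (tsukushi) was at 0.32, 0.21 and 0.13 in CDH26 clones 1 to 3, above both control clones, with a difference of 0.22 ± 0.07 (SE). PODNL1 differed by 0.16 ± 0.07, with 0.07 when control clone 1 and 0.25 when control clone 2 was left out. The highest difference on this list, that of TSKU, was thus far below the 1.59 of LUM, and neither gene passed (limma, adjusted p = 0.626 for each).

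Other proteoglycan core proteins, 19 of 23 measured, had a median of −0.00039 and 0 past the adjusted threshold. HSPG2, which encodes the basement membrane proteoglycan perlecan, differed by −0.23 ± 0.10 (SE), and the glypican GPC6 by 0.10 ± 0.05 (limma, adjusted p = 0.626 for each). Leaving out control clone 1 gave −0.15 for HSPG2 and 0.18 for GPC6, and leaving out control clone 2 gave −0.31 and 0.03. GPC4, named here after its values were seen as the 1 gene of these lists with a 2-fold difference, was at −1.78, −1.64 and −0.92 in CDH26 clones 1 to 3. Its control clones were at −1.13 and 1.13, so CDH26 clone 3 lay between them. Leaving out control clone 1 moved the difference to −2.58, and leaving out control clone 2 to −0.32. SRGN, which encodes serglycin, was also named after its values were seen, and differed by −0.31 ± 0.26 (SE; limma, adjusted p = 0.656). It passed the threshold in the subset without control clone 1, at −0.70 ± 0.03 (SE; limma, adjusted p = 0.0422, the lone control clone being assumed to vary like the CDH26 clones). In the subset without control clone 2 its sign turned, to 0.08.

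Enzymes that build and sulfate glycosaminoglycan chains, 22 of 29 measured, had a median of −0.03, with 14 lower and 7 higher means and 0 past the adjusted threshold. CHST3, a chondroitin 6-sulfotransferase, was at −0.66, −0.65 and −0.48 in CDH26 clones 1 to 3 and at −0.20 and 0.20 in the control clones. CHPF, a chondroitin-polymerising factor, was above both control clones in all CDH26 clones. The differences were −0.59 ± 0.15 and 0.28 ± 0.09 (SE; limma, adjusted p = 0.626 for each), and CHST3 was at −0.39 without control clone 2. On this list 2 genes (9.09%) lay wholly above the control clones and 4 (18.2%) wholly below, beside 8.98% and 9.93% of all genes.

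Elastic fibre genes, 17 of 18 measured, had a median of 0.01, and 12 differed by less than 0.1. FBLN5, which encodes fibulin 5, a protein that links LOXL1 to elastic fibres, was at 0.09, 0.09 and 0.28 in CDH26 clones 1 to 3 and at −0.07 and 0.07 in the control clones. The difference was 0.16 ± 0.09 (SE), and LTBP3, a latent TGF-beta binding protein, differed by −0.25 ± 0.16. LTBP3 was at −0.49 without control clone 1 but at −0.02 without control clone 2, and FBLN5 at 0.08 and 0.23 in these subsets and at 0.09 without CDH26 clone 3. ELN, which encodes elastin and was named after its values were seen, had the same value on all 5 arrays. Genes of copper supply and other copper amine oxidases were covered by 4 of 10, all with a group difference below 0.1 in size. ATOX1, a copper chaperone, differed by −0.06 ± 0.04 and the amine oxidase AOC1 by −0.03 ± 0.03. Leaving out control clone 1 gave −0.12 and −0.08, whereas leaving out control clone 2 gave 0 for ATOX1 and turned the sign of AOC1, to 0.01. No gene of these lists passed (limma, adjusted p = 0.626 for FBLN5 and LTBP3, 0.631 for ATOX1 and 0.732 for AOC1).

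Known regulators of lysyl oxidase genes, among them hypoxia, SNAI, ZEB, SMAD and myocardin-related factors, were covered by 17 of 19 genes, with a median of −0.04. HIF1A and EGLN2 had no named probe set. Group differences ran from −0.96 to 0.63, with 5 higher and 12 lower means. Of the 17 genes, 2 (11.8%) lay wholly above the control clones and 5 (29.4%) wholly below, beside 8.98% and 9.93% of all genes. EGLN3, a hypoxia-induced prolyl hydroxylase of HIF proteins, was at 0.77, 0.74 and 0.39 in CDH26 clones 1 to 3, and at 0.20 and −0.20 in the control clones. ARNT, the partner of HIF alpha subunits, was at 0.69, 0.64 and 0.52, and at 0.37 and −0.37 in the control clones. The differences were 0.63 ± 0.19 and 0.62 ± 0.25 (SE), and neither passed (limma, adjusted p = 0.626 for each). ARNT was at 0.98 without control clone 1 and at 0.25 without control clone 2.

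The list of TGF-beta ligands and receptors and of decorin and biglycan receptors was covered by 7 of 14 genes, with a median of −0.10 and 6 lower means. The genes measured were EGFR, MET, KDR, IGF1R, TLR2, TLR4 and CCN2. No TGF-beta ligand or receptor was among them: TGFB1, TGFB2, TGFB3, TGFBR1 and TGFBR2 had no named probe set. TLR4, a receptor for soluble biglycan, differed by −0.40 ± 0.23 (SE) and CCN2, a matrix protein induced by TGF-beta, by −0.20 ± 0.11 (limma, adjusted p = 0.626 for each). Without control clone 1, CCN2 was at −0.37 and TLR4 at −0.75, while without control clone 2 they were at −0.03 and −0.06. For CCN2, control clone 1 was at −0.17, near the CDH26 clones at −0.19, −0.21 and −0.21. Its difference thus rested on control clone 2, at 0.17.

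**Figure D5:**
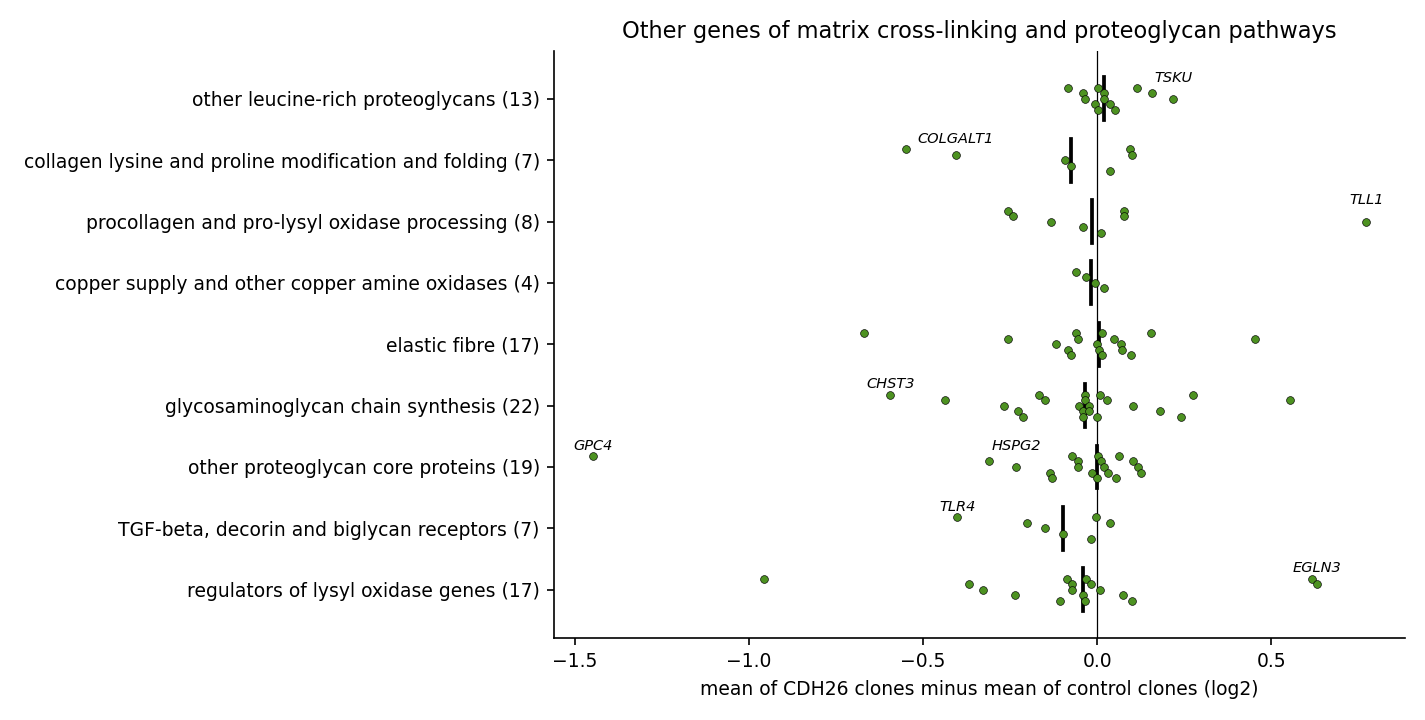
Each point is 1 gene of a pathway list (rows, with the number of genes measured), placed by its group difference (horizontal axis, mean of CDH26 clones minus mean of control clones, log2), and a black bar marks the list's median. The medians lie between −0.10 and 0.02, with TLL1 at 0.77 and GPC4 at −1.45 the outermost points.

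CDH26 itself was at 2.87, 3.01 and 2.63 in CDH26 clones 1 to 3 and at 0.01 and −0.01 in the control clones. This fits the labels, but the difference did not pass the threshold (limma, adjusted p = 0.25), although CDH26 was 7.16-fold higher. A pathway gene that did not pass can therefore not be read as unchanged. As the table holds no level, the epithelial identity of TE7 could not be checked by level. Of 6 fibroblast markers measured of 18 listed, differences ran from −0.16 to 0.11, with list medians between −0.01 and 0.01 in the 5 clones, and 0 lay wholly above the control clones. Among 16 epithelial markers measured of 19, 5 (31.2%) lay wholly above the control clones and 2 (12.5%) below, beside 8.98% and 9.93% of all genes, with list medians from −0.10 to 0.10 in the 5 clones. Of these markers 7 had a higher and 9 a lower mean, with a median difference of −0.02. The highest was the basal keratin KRT14, at 3.04, 3.11 and 2.02 in CDH26 clones 1 to 3, and the lowest the simple keratin KRT7, with a difference of −0.41. Of 5 leukocyte markers measured of 11, CD68 lay wholly above the control clones (difference 1.07) and CD14 wholly below (−0.04). Of 6 endothelial markers measured of 9, ERG lay wholly above (0.35) and 0 wholly below. The group difference was below 0.1 in size for the other 4 leukocyte and the other 5 endothelial markers. The part of these marker differences in the values of LOX and LUM was not tested. In bulk RNA of a clone, fewer cells expressing a gene and less RNA per cell cannot be told apart.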

How the data were processed

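The authors deposited 1 table of log values, whose base is not stated and which were taken as log2, centred on the mean of the control clones: in every row the control columns summed to 0 within 1e-06. Per the submitters' processing notes Affymetrix Expression Console was used; its version, summarisation, background correction and build: not given in the sources used here. The platform annotation named 15835 of 44607 probe sets, each with 1 gene; 28772 were unnamed and 0 had several, and all 15835 names matched the current RefSeq symbol. Values were averaged over the probe sets of a gene, without a filter, which centred values do not allow. Groups, taken from the sample titles, were compared by lmFit and eBayes (limma 3.58.1, R 4.3.3, group as the only term, two-sided), adjusted by Benjamini-Hochberg over 14812 genes at 0.05. The fit was tested on simulated data. SE is limma's moderated value for tested genes and the residual SE for the 10 members. No source says how the clones were cultured apart beyond their single-cell origin. The p-values set the group difference against the spread within groups of these clones, which holds clonal and array variation together. An exact permutation of 2 against 3 clones gives no p below 0.1 and was not used. Genes were named by rule: every member, the 2 genes of each pathway list with the smallest unadjusted p, and the 3 genes nearest to each member spanning at least 1 log2 unit. GPC4, SRGN, ELN, the neighbouring genes and the single markers named fall outside this rule and were chosen after their values were seen. Members and lists were chosen with earlier results of these data known. Promoters are RefSeq's (GRCh38.p14). Alternatives were each clone left out, array-median centring, the widest probe set, natural logarithms, array weights, a trended robust variance, the replicate block, a threshold of 0.1, untied genes and single probe sets. Figures used matplotlib 3.10.9.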

Additional observations from a re-analysis of the deposited data

How the results depend on the processing

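The counts of members apart from the controls depended on the clones used. With each clone left out in turn, 2 to 5 members lay wholly above the remaining control clones and 0 to 2 wholly below. Any gene can lie apart more readily when fewer clones are compared. Shares over all genes are not given for these subsets, so nothing about the members is read from these counts. The median member difference ranged from −0.04 to 0.01. In these subsets LOX ranged from 1.30 to 1.96 and LUM from 1.38 to 1.96. Both kept their direction under all 8 alternatives, but none of these could have turned it. The groups did not overlap for either gene, so the sign stays whichever clone is left out. The median of each array was already 0, each member had 1 probe set, and another base of logarithm only rescales the values. The kept direction is therefore no test of either difference. Read as natural logarithms, LOX was at 2.32 and LUM at 2.29 log2 units. LOXL1 changed sign in 1 alternative (−0.13 without control clone 1; 0.20 without control clone 2), and OGN reached 0 in 1. With each clone left out, genes past the adjusted threshold numbered 0 to 186 of all genes and 0 to 2 of the pathway lists; those 186 and 2 were found without control clone 1, where the lone control is assumed to vary like the other clones. When the fit kept the 6857 genes free of equal values, 1 gene passed, CDH26. The other limma alternatives called 0 genes. With the replicate block 0 genes passed, in the whole table and in the pathway lists; CDH26 clone 3 has no partner and drops out of that fit. The numbers were taken here only as names of clones. Deviations of same-numbered clones from their group means correlated at −0.198 and −0.205 over genes. The deviations of the 2 control clones mirror each other, so these values are not independent, and a batch shared by same-numbered clones was not tested. The brightness filter was not run, since centred values hold no level. Of 192 alternative values of the 18 pathway genes named by rule, 190 kept their side of the threshold without a turned sign and 1 (CCN2) passed it. The remaining 1 turned sign: with each clone left out, AOC1 ranged from −0.0752 to 0.0127 and was positive without control clone 2. None of these 18 genes passed in the main fit, and array-median centring could change no value. Keeping the side of the threshold is therefore no test of their differences. Values that kept it could still shrink: without control clone 2, TLR4 went from −0.40 to −0.06 and LTBP3 from −0.25 to −0.02. SRGN, named after its values were seen, also passed and also turned sign (−0.70 to 0.08).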
